A study of Mus musculus with 4 samples.

Results

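This account concerns the 2711 CTCF regions called in proximal forelimb and in none of the other 3 tissues, out of 121759 regions in all. They were found by collapsing rows with the same interval in the 4 deposited peak lists, joining peaks that shared at least 1 base into union regions on chromosomes 1 to 19, X and Y, and keeping regions that held a proximal forelimb peak and no peak of another list. They were thus chosen by the presence and absence of calls, which rest on the authors' q. The libraries were chromatin immunoprecipitations of CTCF, sequenced from wild-type mouse embryos of strain B6CBAF1. Proximal and distal forelimb came from E12.5 (embryonic day) and carry titles that mark them as re-analysed data, so the source of the limb data and the limb tissue cannot be told apart against the other tissues. Brain was a pool of 6 telencephalons at E12.5. Posterior trunk, labelled E10, was the tailbud, presomitic mesoderm and a few somite pairs of about 30 embryos. With 1 library per tissue there were no replicates, and differences are given without a test. A peak list holds no marker transcripts, so the labelled tissue could not be checked against its cell types. A region absent from a list is one that was not called there.

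CTCF is a zinc-finger protein that binds a long, GC-rich DNA motif and halts the loop-extruding cohesin complex, and many of its sites sit at borders of chromatin domains. Most strong CTCF sites are known to be occupied in many cell types. The forelimb bud at this stage is patterned from the shoulder outwards, with Meis and Shox2 genes in proximal cells and Hoxa13 in the prospective hand, while muscle precursors, vessels and nerves enter from the body wall.

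Of the 2711 regions, 38 overlapped a promoter window, the 250 bases before and 50 after an annotated gene start. They touched 45 of the 32851 windows listed and were 1.40% of the members. The share was 4.27% of all union regions and 1.35% of distal-forelimb-only regions. The windows used do not cover every gene start, so 38 is a lower limit. The windows below are shown because they hold the proximal-forelimb-only regions at limb patterning genes (Hoxa10, Cyp26a1), at the only one of these windows with the strict CTCF core motif (Bdnf) and at the one with the highest pileup (Ass1). Sequences are RefSeq, build GRCm38.p6, the assembly also called mm10, written along the gene's strand, with matches to a loose form of the CTCF core motif on either strand in capitals.
Hoxa10: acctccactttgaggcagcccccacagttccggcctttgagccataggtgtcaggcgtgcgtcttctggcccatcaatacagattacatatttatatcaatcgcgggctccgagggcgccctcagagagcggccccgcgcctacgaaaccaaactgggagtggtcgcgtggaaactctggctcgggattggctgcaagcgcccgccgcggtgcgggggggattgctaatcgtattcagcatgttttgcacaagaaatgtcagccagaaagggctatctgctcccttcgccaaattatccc
Cyp26a1: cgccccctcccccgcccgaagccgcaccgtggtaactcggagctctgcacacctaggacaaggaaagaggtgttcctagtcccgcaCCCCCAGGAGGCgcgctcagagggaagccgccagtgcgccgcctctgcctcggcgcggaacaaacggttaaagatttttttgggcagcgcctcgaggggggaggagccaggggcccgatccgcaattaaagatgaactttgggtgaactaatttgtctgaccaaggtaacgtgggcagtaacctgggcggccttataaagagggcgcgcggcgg
Bdnf: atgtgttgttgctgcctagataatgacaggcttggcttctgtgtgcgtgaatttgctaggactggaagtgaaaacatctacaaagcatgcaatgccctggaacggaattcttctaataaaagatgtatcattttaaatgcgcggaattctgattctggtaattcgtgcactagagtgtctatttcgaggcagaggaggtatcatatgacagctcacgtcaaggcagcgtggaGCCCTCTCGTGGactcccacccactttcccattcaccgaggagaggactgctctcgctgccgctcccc
Ass1: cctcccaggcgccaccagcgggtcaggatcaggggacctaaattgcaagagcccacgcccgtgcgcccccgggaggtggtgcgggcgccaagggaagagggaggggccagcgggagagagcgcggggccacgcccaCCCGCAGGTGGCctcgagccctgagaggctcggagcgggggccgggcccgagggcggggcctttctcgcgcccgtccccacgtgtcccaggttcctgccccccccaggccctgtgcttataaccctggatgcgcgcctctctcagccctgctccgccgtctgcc

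Hoxa10, a homeobox gene of the upper and middle limb, had its window at chr6:52234890-52235189 on the minus strand, and the region covered 52235015–52235219. The summit lay at −178 from the gene start, position 73 of the printed sequence, with a pileup of 24 over a local background of 5.28. The authors' fold was 3.98, which is the summit pileup over the local background with 1 added to both. No match to the core stood in these letters. At Cyp26a1, whose enzyme degrades retinoic acid, the window was chr19:37697558-37697857 on the plus strand and the region was 37697626–37697944. Its summit, at −66 from the gene start, had a fold of 3.79, and the loose core matched at positions 87 to 98 on the printed strand, reading CCCCCAGGAGGC, away from the summit at position 185. This region also overlapped the window of the neighbouring gene Gm32342 on the other strand.

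Bdnf encodes a neurotrophin. In its window, chr2:109692186-109692485 on the plus strand, the region 109692275–109692528 had its summit at position 230, and the match at positions 233 to 244 read CCACGAGAGGGC on the opposite strand. The pileup of 47 stood over a high local background of 12.4, giving a fold of 3.59. Ass1, a gene of arginine synthesis, had the region 31469974–31470217 over the window chr2:31470020-31470319 on the plus strand, with a pileup of 57, a background of 15.4 and a fold of 3.54. Its match, CCCGCAGGTGGC, lay at positions 137 to 148 and the summit at position 75.

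Few of these windows held the strict core, and more held the loose one. The strict form, searched on both strands, fixes an A after the leading CC, and the loose form leaves that base open. The strict form occurred in 1 of the 45 windows, or 2.22%, against 2.43% of all windows and 1.45% of windows overlapped by no region, and a single window gives no measure of a difference. The loose form, which includes every match of the strict one, occurred in 9 of the 45, or 20%, against 8.61% of all windows. These windows are not independent, since the overlapping windows of Cyp26a1 and Gm32342 hold the same match and 4 of the 45 belong to D030055H07Rik. That share was 20.7% of the 58 windows with a distal-forelimb-only region and 25.9% of the 3433 windows with a region called in all 4 tissues, where the strict form stood in 9.29%. Median GC was 62.3% in the 45 windows, 61.8% in the distal-forelimb-only ones, 60.7% in those called in all 4 tissues and 52.7% over all windows. Its part in the counts was not tested. A match describes letters and is not a bound site.

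Other promoter regions belonged to genes of varied function. Among the 38 regions that reached into a listed promoter window, the highest fold was 4.48, at X:12587786–12588049 over Atp6ap2, a subunit of the vacuolar proton pump complex. Mrln, which encodes the muscle micropeptide myoregulin, had 4.25 at 10:70204415–70204643. Alkbh5, an RNA demethylase gene, had 4.24, St7l 4.17, Rflnb 4.10 and Lbr, the lamin B receptor, 4.03. With gene ends included, 249 of the regions, or 9.18%, lay within 1 kb of either end of a gene span, against 15.5% of all union regions. The leading ones by fold were near 1700030N03Rik at 4.66, in Gm34376 at 4.58 and in Spag9, a scaffold of kinase signalling, at 4.56. Lower in the leading 10 were regions near Gm40942 at 4.33, near Tcaf3 at 4.31, near Gm17079 at 4.3, in Cdc42ep1 at 4.28 and at the end of Casp16 at 4.27. The region at Zfp27, 29906409–29906617 on chromosome 7, overlapped the hairpin gene Mir7668 and was the only one of the 2711 that overlapped any of 1005 microRNA hairpins.

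The regions were weak within their own list, as the choice of members favours. They made up 2.23% of all union regions and 4.28% of the 63322 regions called in proximal forelimb. Regions called in distal forelimb only made up 3.11% of the union, in brain only 5.92%, in posterior trunk only 28.4% and in all 4 tissues 42.4%. Their folds ran from 1.96 to 5.89 with a median of 3.04, while the whole proximal list had a median of 6.64. Pileups ran from 13 to 59, with a median of 17 over a median background of 4.84. Median width was 218 bases against 363 for the list, and 756 regions had the minimum width of 200 bases. All 2711 held a single peak, and 5 of them had several summits. Only 134 reached a fold of 4 and 11 a fold of 5. The weakest decile of the proximal list held 1983 of them, where they were 31.0% of the peaks, and the next decile held 552, or 8.66%. The third decile held 143, the fourth 32 and the fifth 1. The distal-forelimb-only regions had the same form, at 43.0% and 13% of the weakest deciles of their list. These values chose the members and are given as a description.

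**Figure D1:**
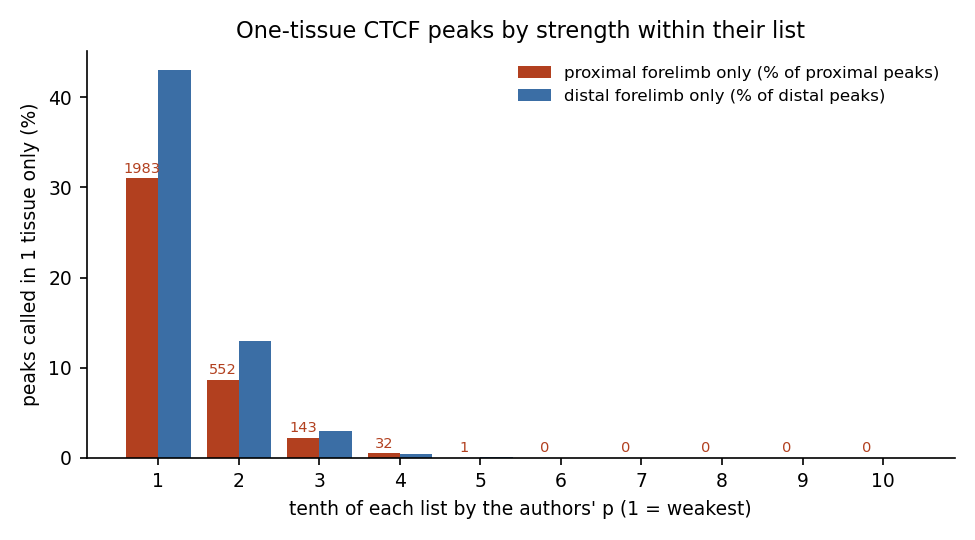
Share of peaks called in 1 tissue only in each decile of the proximal (red) and distal (blue) forelimb lists, ordered by the authors' p from weakest to strongest, in percent. Red numbers count proximal-forelimb-only peaks, which fall from 1983 in the weakest decile to 1 in the fifth.

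Near the threshold the choice of members turned on small differences. The weakest regions just inside it had a −log10 q of 1.31, at 13:114139587–114139810 in Arl15 with a fold of 2.26, and at 1:10505719–10506072 in Cpa6 and 17:42327488–42327748 in Ptchd4, both with a fold of 2.37. Just outside were regions that 1 other list called near its own limit. One 80.5 kb from Stt3b, 9:115390922–115391338, had a −log10 q of 4.22 in proximal forelimb and 1.33 in posterior trunk. One 2.03 kb from Ube2q2, 9:55146979–55147337, had 4.10 and was called in brain at 1.34. A region 14.5 kb from Suz12, a Polycomb gene, 11:79978375–79978642, had 3.05 and was called in brain at 1.38. Of the left-out libraries, posterior trunk moved the count most. Without it, 5304 regions were called in proximal forelimb only. With a −log10 q of at least 5 required in every list, the count was 788.

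Depth bore on how many could have been called elsewhere. Relative to proximal forelimb, the lowest local background of each list gave depths of 2.04 for posterior trunk, 1.86 for brain and 0.92 for distal forelimb. If occupancy were equal, a Poisson model gave 2445 of the 2711 a chance of at least 0.95 of a posterior trunk call, and 2236 of them the same for brain. In the shallower distal forelimb library this held for 400, and the median chance there was 0.80. Such chances lean high, because each region was picked for a pileup that passed in proximal forelimb. The model also scaled pileup and background by the same depth ratio, so it took enrichment as equal in all libraries. Median folds of the lists were 4.99 in posterior trunk, 5.71 in brain, 6.89 in distal and 6.64 in proximal forelimb. What part this had in the missing calls was not tested. Regions with a −log10 q of at least 5 numbered 501, with folds of 2.61 to 5.89 and a median of 3.76. All 501 stayed proximal-forelimb-only at common thresholds, in lists of equal length and at equalised depth. This was fixed in advance, since those settings remove calls from the other lists and none were added.

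**Figure D2:**
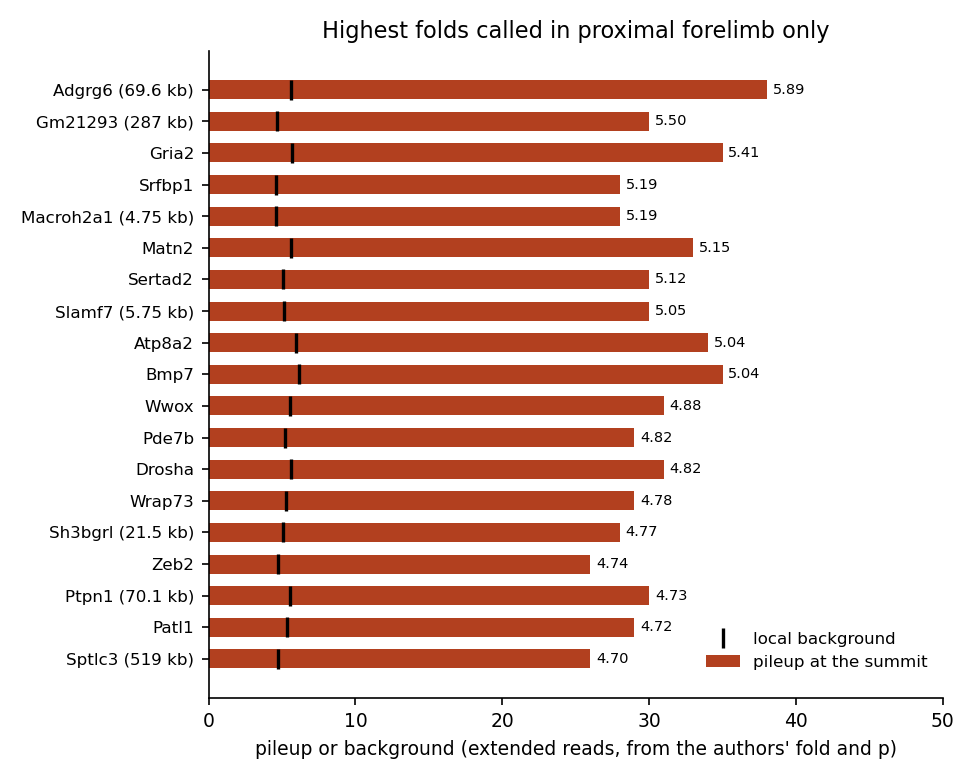
Pileup at the summit (bars) and local background (black ticks), in extended reads, for 19 of the 20 regions with the highest authors' fold, which is printed beside each bar. Names give the nearest protein-coding gene, with the distance where the region lay outside its span; pileups run from 26 to 38 over backgrounds of 4.58 to 6.14.

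The 20 regions with the highest folds lay inside or near genes without one common role. Under that model their chances of a call in every other list rounded to 1. The model used the same pileup and background that give the fold, so the ranking by fold favoured such values. First was 10:14332737–14333031, 69.6 kb from Adgrg6, an adhesion receptor gene needed for myelination by Schwann cells, with a pileup of 38, a background of 5.62 and a rank at percentile 41.4 of the proximal list. It lay 10.6 kb from a region called in all 4 tissues. The second, 10:103855332–103855626, had a fold of 5.50 and its nearest protein-coding gene, Gm21293, was 287 kb away. Gria2, a glutamate receptor subunit gene, held 3:80796804–80797102, with a pileup of 35 and a fold of 5.41. The other members had folds of at most 5.19.

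Bmp7, a ligand of the bone morphogenetic protein family expressed in the limb bud, was the limb signalling gene among these 20. Its region, 2:172900965–172901237, had a pileup of 35 over 6.14 and a fold of 5.04, and lay inside the gene span. The nearest regions on either side were a posterior-trunk-only one 4.99 kb away and one called in posterior trunk and distal forelimb. Zeb2, a repressor of epithelial genes, held 2:45001838–45002055 at a fold of 4.74, with a pileup of 26. Matn2, a matrix protein gene, held 15:34375321–34375581 at 5.15.

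Other members of the 20 lay at genes of unrelated roles. Macroh2a1, a histone variant gene, lay 4.75 kb from 13:56140373–56140597, with a fold of 5.19. Drosha, the nuclear enzyme of microRNA processing, held 15:12857219–12857450 at 4.82, and Patl1, an mRNA decay factor, held 19:11937082–11937367 at 4.72. The Patl1 region stood 0.365 kb from a region called in distal forelimb only, so the forelimb parts had separate calls side by side there. Sertad2 held 11:20580110–20580392 at 5.12 and Srfbp1 held 18:52471012–52471297 at 5.19.

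Others were spread over further genes. Atp8a2, a lipid flippase gene, held 14:59868457–59868772 at 5.04 and Wwox held 8:114623639–114623958 at 4.88. Pde7b, a cyclic AMP phosphodiesterase gene, held 10:20657353–20657578 at 4.82 and Wrap73 held 4:154144811–154145057 at 4.78. Slamf7, an immune receptor gene, was 5.75 kb from 1:171658785–171659067, at 5.05. Farther from genes were X:109073633–109073913, 21.5 kb from Sh3bgrl at 4.77, and 2:167860408–167860691, 70.1 kb from Ptpn1 at 4.73. The last was 2:138974669–138974893, 519 kb from Sptlc3 and 307 kb from the nearest region called in all 4 tissues, at 4.70.

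In the lists as deposited, proximal-forelimb-only regions lay outside genes and away from sites called in all 4 tissues more often than union regions did. Inside any gene span were 1431, or 52.8%, with an exact Clopper-Pearson 95% interval of 50.9% to 54.7%, which covers counting error only. Over all union regions the share was 60.6%, over regions called in all 4 tissues 62.5% and over distal-forelimb-only regions 51.1%. Over 100 kb from any gene were 191, or 7.05%, against 2.82% of all union regions and 6.90% of distal-forelimb-only regions. A region called in all 4 tissues stood within 10 kb of 760, or 28.0% (interval 26.3% to 29.8%). This share was 35.5% of all regions that were not themselves called in all 4 tissues and 23.1% of distal-forelimb-only regions. The median distance to such a region was 21.9 kb, against 24.1 kb for distal-forelimb-only and 15.8 kb for posterior-trunk-only regions. Without posterior trunk, 58.2% of the 5304 regions lay in a gene span and 35% had a region called in the remaining 3 tissues within 10 kb. The 788 regions at a −log10 q of at least 5 had shares of 63.2% and 38.3%. With pileups scaled to one depth the shares were 60.1% and 33.9%. That setting also required a −log10 p of at least 5 after scaling, and this p alone gave 56.4% and 31.2%. Set beside 60.6% and 35.5%, the direction turned at that q and the differences were small at one depth, but the union shares were computed only for the deposited lists.

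The genes that held them were long. Of 1183 regions in protein-coding spans, 206, or 17.4%, lay in genes over 500 kb, against 10.4% of all union regions in such spans and 16.6% of distal-forelimb-only ones. The median host gene span was 128 kb against 93.5 kb. Within 50 kb of their spans, Ccdc171, Dlg2, Csmd1, Cdh13 and Pde7b had 5 regions each, the most of any protein-coding gene. Dlg2, a synaptic scaffold gene, spans 1970 kb and Csmd1 1640 kb, whereas Pde7b spans 328 kb and Ccdc171 341 kb.

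Stronger members more often had a site called in all 4 tissues nearby. With a −log10 q under 2, 18.7% of 443 regions had a region called in all 4 tissues within 10 kb, then 23.8% from 2 to 3, 26.7% from 3 to 5 and 44.5% of 501 at 5 and above. The share inside gene spans went from 46.7% to 63.9% over the same steps. Distal-forelimb-only regions ran from 19.3% to 35.2% for the first measure and from 47.5% to 60.0% for the second. Local background moved with strength. Its median was 4.70 in the weakest of these groups of members and 5.32 in the strongest, and its part in the trend was not tested.

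**Figure D3:**
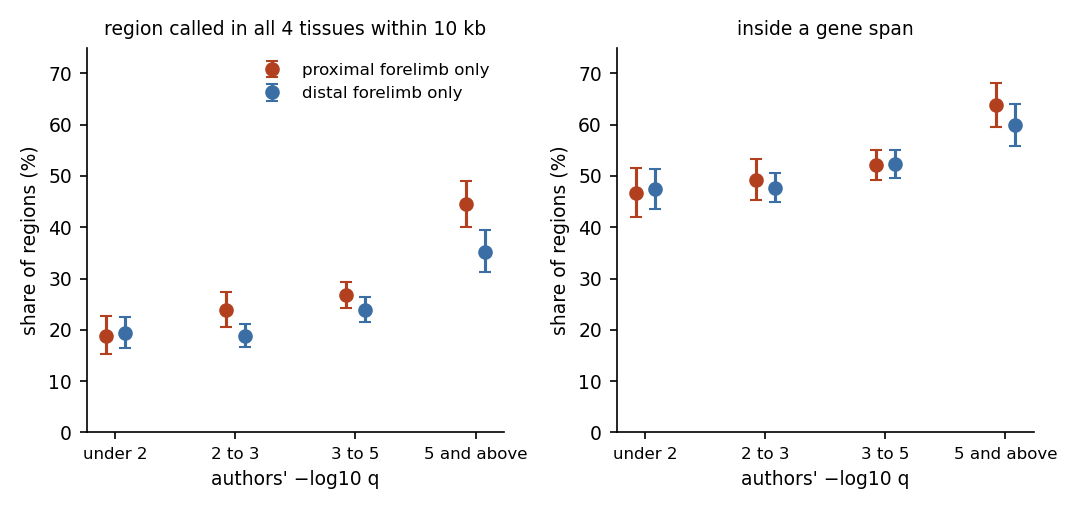
Share of one-tissue regions with a region called in all 4 tissues within 10 kb (left) and inside a gene span (right), in percent, by the authors' −log10 q, for proximal (red) and distal (blue) forelimb. Bars are exact 95% binomial intervals for counting error; the left share of proximal regions goes from 18.7% to 44.5%.

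Some members were neighbours of another call. Another region stood under 500 bases from 187 of them, or 6.90%, close to the 7.18% of all union regions. For 63 this was a posterior-trunk-only region and for 44 one called in all 4 tissues. In 6 cases the neighbour was called in the 3 other tissues and not in proximal forelimb, so that joined intervals would have made 1 region of all 4 tissues. These were in Lsamp, at 5 bases, in Ahcyl2 at 85, in Pdss2 at 137 and in Utrn at 155 bases. The others were 14.3 kb from Evx1 at 213 bases and 4.64 kb from Glyctk at 369 bases. At Evx1, a homeobox gene beside Hoxa13, the proximal region was 6:52332729–52332958, with a fold of 3.22, and the neighbour was 52333172–52333568. Their separation from a shared site rests on where the peaks ended.

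Chromosome X held 39 of the regions, or 1.30% of its 2995 union regions, with an exact interval of 0.928% to 1.78%. The autosomes ran from 1.85% on chromosome 11 to 2.76% on chromosome 15. Distal-forelimb-only regions were also fewest on X, at 2.14% against 2.52% to 4.07% on autosomes. Chromosome Y had 4 of 101.

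Runs of at least 3 members within 100 kb, extended where such groups shared members, numbered 26 and held 81 regions. No like count for other one-tissue regions is given here. The nearest region was another member for 2.95% of the members. A member was nearest to 3.46% of distal-forelimb-only and 3.80% of brain-only regions. The longest run was in Pde7b on chromosome 10, with 5 members from 20540661 to 20657578. Their folds in genomic order were 3.12, 2.44, 3.19, 3.33 and 4.82. The same 117 kb held 3 other regions, of which 20547816–20548436 was called in all 4 tissues with folds of 7.72 to 10.7 in the separate lists, 20607869–20608247 in all but brain, and 20636742–20636949 in distal forelimb only. Posterior trunk had 2 regions there and brain 1, and the run was picked for members that by the rule lack calls in both.

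A second run of 4 members ran from 90887565 to 90986554 on chromosome 16, over Eva1c, Cfap298 and Synj1, a gene of synaptic vesicle recycling. Its folds were 2.88, 2.70, 2.38 and 3.39, and 3 regions called in all 4 tissues, 3 posterior-trunk-only regions and 1 brain-only region lay among them. The other 24 runs had 3 members each. Aff3, Grip1, Rassf3, Tent2, Gabrg3 and Ccdc171 were among the genes in them, and 10 runs of the 26 touched no protein-coding span. In 3 runs no other tissue had a region at all, namely one 1670 kb from Slitrk5 on chromosome 14, one 75 kb from 4931417E11Rik on chromosome 6 and one at Nlrp4c on chromosome 7. Runs over the zinc-finger genes Zfp992, Zfp981 and Zfp993, over Zfp978 and beside Btbd35f29 lie in families of similar copies. Reads can be assigned between such copies, so those calls are uncertain.

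Listed genes had proximal-forelimb-only regions about as often as protein-coding genes at large. Of 311 listed genes in 13 groups, 46 had a proximal-forelimb-only region in the window of the gene span with 50 kb on both sides. Over all 21887 protein-coding genes 15.1% had one, so 46 of 311 is near that background. When posterior trunk was left out the count was 102, but the share over all genes was not computed for that setting. Among union regions within 50 kb of a protein-coding span, 1.91% were proximal-forelimb-only. The share was lower in 11 of the 13 groups' windows.

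Proximal limb genes had such a region near 9 of 30 members, from 7 distinct regions, or 1.78% of 393 regions in their windows. Hoxa9, Hoxa10 and Hoxa11 shared the region in the Hoxa10 promoter. Fgf10, the mesenchymal growth factor that starts limb outgrowth, had 13:118819844–118820062 at 27.3 kb, with a fold of 3.94 and a pileup of 21 over 4.58. Nr2f2, a nuclear receptor gene, had 7:70340376–70340623 at 11.3 kb, with a fold of 3.6 and a pileup of 31 over 7.90. Tbx5, the T-box gene required for the forelimb, had 5:119779975–119780174 at 16.3 kb, with a fold of 3.55, a pileup of 38 and a high background of 9.98. Prrx1, a homeobox gene of limb mesenchyme, held 1:163267386–163267585 at 3.37. Tbx15 had a region at 3.04 and Rarb, a retinoic acid receptor gene, one at 2.51. Meis1, Meis2 and Shox2, the proximal genes named above, had 0 in their windows. The windows of these 30 genes also held 17 distal-forelimb-only regions, or 4.33%, against 2.52% in the windows of all protein-coding genes.

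Distal limb genes had fewer, near 3 of 30, or 1.06% of 282 regions. They were Bmp7 at 5.04, Hoxa13, whose window reached the Hoxa10 promoter region 23.6 kb away, and Cyp26a1 at 3.79. Cartilage and bone genes had 2 of 30, or 0.495% of 404 regions. Runx3, a transcription factor of chondrocyte maturation, held 4:135131914–135132113 at 3.31, and Col11a1, a fibrillar collagen gene of cartilage, held 3:114078687–114078886 at 3.04. Distal-forelimb-only regions in the same windows numbered 7 and 10. They were 2.48% of the regions in both groups, near the 2.52% in the windows of all protein-coding genes.

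Limb muscle genes had proximal-forelimb-only regions near 4 of 25, from 3 distinct regions among 238, or 1.26%, and their windows held 0 distal-forelimb-only regions. Pax3, the marker of migrating muscle precursors, held 1:78140876–78141093, with a fold of 3.54 and a pileup of 21 over 5.22. Chrnd, an acetylcholine receptor subunit gene, had 1:87200300–87200499 at 0.229 kb, with a fold of 3.04. Tnnt2 and Tnni1, troponin genes of striated muscle, shared 1:135834336–135834538, also at 3.04. With 3 regions, this group gives no measure of a difference between the forelimb parts.

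**Figure D4:**
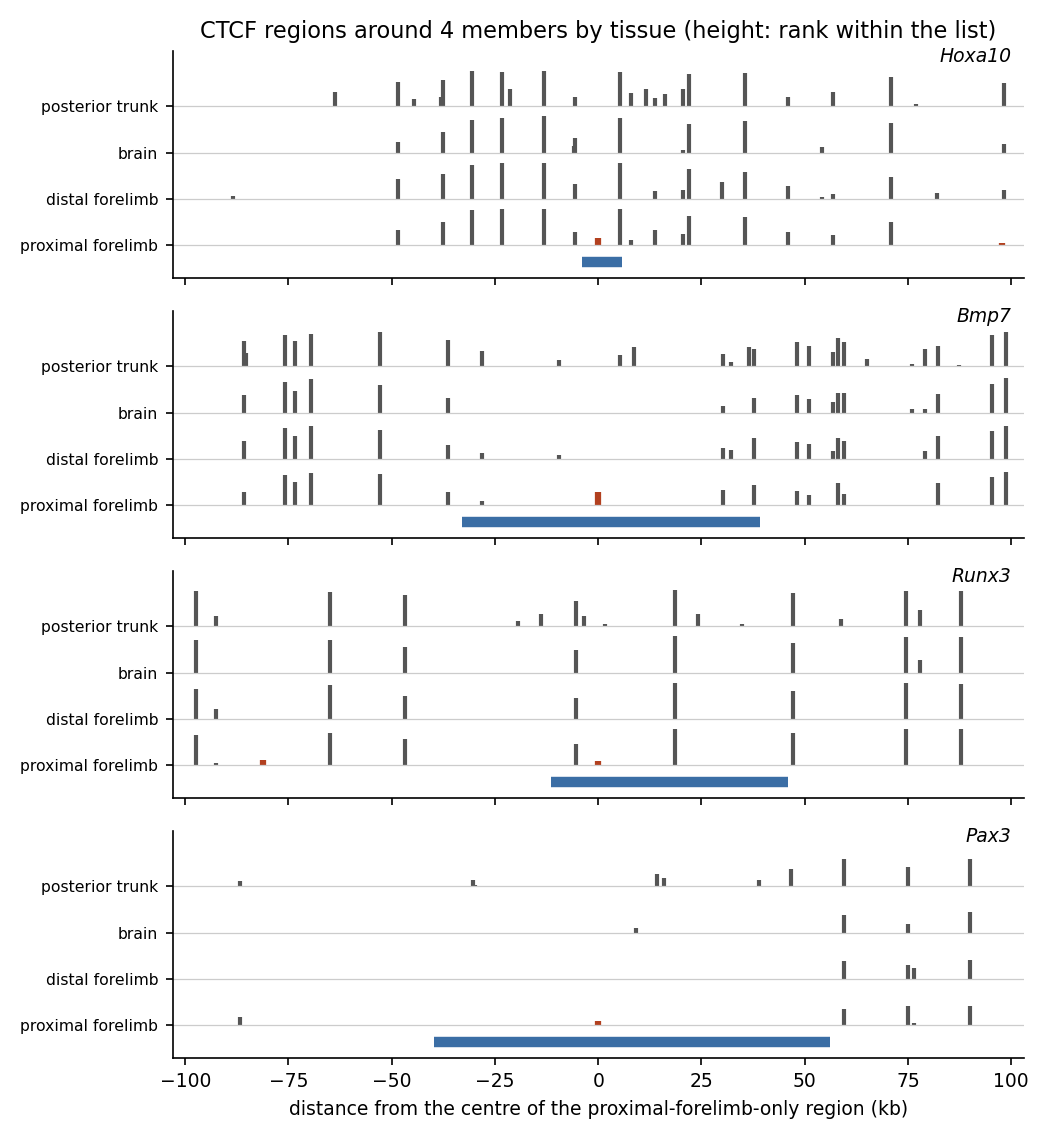
CTCF regions within 100 kb of the member with the highest fold in the windows of 4 gene groups, by tissue. Line height is the rank percentile within that tissue's list, red lines are called in proximal forelimb only, and blue bars are the gene spans; the Hoxa10 and Bmp7 members stand at percentiles 20.5 and 36.2 of the proximal list.

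The surroundings differed between these genes. In the 100 kb on both sides of the Hoxa10 promoter region, the neighbours 52229433–52229773 and 52240183–52240841 were called in all 4 tissues. The first ranked at percentiles 25 in posterior trunk, 39.3 in brain, 39.9 in distal and 36.2 in proximal forelimb, and the second at 93.3 to 98.2. At Runx3 the member, at percentile 12, lay between posterior-trunk-only regions of percentiles 26.8 and 7. The Pax3 member was at percentile 13.1, and no region called in all 4 tissues lay within the gene span.

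Genes of other cell types that a forelimb piece holds gave like counts. Tendon and connective tissue genes had 2 of 20, Prrx1 and Lum, a matrix proteoglycan gene, at 3.07. Blood and endothelial genes had 3 of 20, with Tek, an angiopoietin receptor gene, at 3.85, Pecam1 at 3.44 and Tal1 at 2.88. Among neural crest and Schwann cell genes only Mitf had one, at 3.04. Surface ectoderm genes had Tfap2c at 3.28, with 2 regions, and Krt14 at 2.31. In the same order of groups, members were 1.11%, 1.12%, 0.714% and 1.95% of the regions in the windows. The share within 50 kb of any protein-coding span was 1.91%.

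Genes of the tissues where these regions were not called had them too. Telencephalon genes had 3 of 25, among them Eomes at 3.48 and Gbx2 at 3.25. Their 4 distinct regions were 1.88% of 213 in the windows, near the 1.91% within 50 kb of any protein-coding span. Proximal limb genes stood at 1.78%, from 7 regions, and so few regions give no measure of a difference. Tailbud and presomitic mesoderm genes had 4 of 25, namely Dll3 at 3.85, Cyp26a1 at 3.79, Lfng at 3.58 and Evx1 at 3.22. Housekeeping genes had 3 of 30, B2m at 3.30, Ywhaz at 2.91 and Tfrc at 2.47. At known CTCF loci 4 of 30 had one. Beside Hoxa13 these were Firre, a long non-coding X-linked gene with many CTCF sites, at 2.90 over a background of 11.4, Meg3 at 2.89 and Pcdha1 at 2.32. The Meg3 region, 12:109595644–109595874, lay inside the imprinted gene Rtl1 and 246 bases from Mir3071. Of the regions in the windows, members were 1.38% at tailbud and presomitic mesoderm genes, 1.09% at housekeeping genes and 1.22% at known CTCF loci.

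In the Hox clusters, members lay in HoxA and HoxC. HoxA had the Hoxa10 promoter region among 28. HoxC had 15:102921525–102921769 in the span of Hoxc13, with a fold of 3.17 and a pileup of 19 over 5.30, among 22. HoxB and HoxD had 0 among 23 and 20. In all, 14 of 41 Hox and Evx genes had a member in the window, from 3 distinct regions, because the windows overlap. The third was the region beyond Evx1. The 3 regions were 2.42% of the 124 in these windows, against 1.91% of union regions within 50 kb of any protein-coding span. Distal-forelimb-only regions also made up 2.42% of these windows. With 3 regions, this group gives no measure of a difference.

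**Figure D5:**
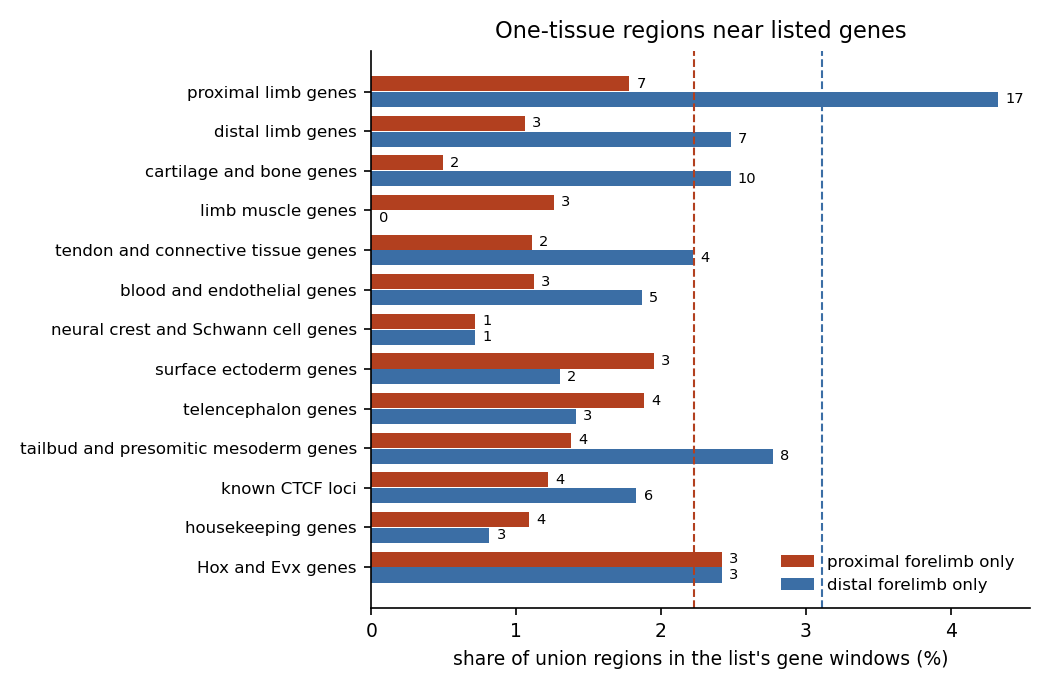
Share of union regions in each gene group's windows that were called in proximal forelimb only (red) or distal forelimb only (blue), in percent, with the number of regions beside each bar. Dashed lines mark the shares over all union regions, 2.23% and 3.11%. The like shares within 50 kb of protein-coding spans, not drawn, were lower, at 1.91% and 2.52%. The red bars stand at 0.495% to 2.42%.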

How the data were processed

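Reads were trimmed, aligned or called with tools that the submitters' processing notes list without order or role: MACS2 2.1.1.20160309, SAMtools 1.9, cutadapt 1.16 and Bowtie2 2.3.5, on build mm10. Their options, and any input control, were not given in the sources used here. Each list deposited by the authors is a narrowPeak table with a fold (a ratio), a −log10 p-value, a −log10 q-value, a score that follows the −log10 q, and a summit offset. The lowest −log10 q was 1.30 or 1.31 in each list, so calls ended near a q of 0.05. The lists give no read totals, so absolute depth is unknown. A whole-number pileup and a local background were recovered from fold and p, and the largest misfit in −log10 p was 0.00031. The chance of a call elsewhere is a Poisson tail with the pileup and the local background scaled by relative depth. Gene spans and promoter windows came from RefSeq tables of GRCm38.p6, in which all 336 listed entries matched.

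The members and gene lists were chosen with earlier results of these data known. The rule for names covered the 20 highest folds, the 3 nearest the threshold on both sides, the 10 highest that stayed under stricter settings (the leading 10 of the 20), the 10 highest in promoter windows or within 1 kb of gene ends, up to 5 genes per list, members in Hox clusters, and runs of 3. Runs were named in part, and 1 of the 20 regions and 1 listed gene are not reported here. Further promoter genes, hosts, close pairs, genes past 5 in a list and the printed Bdnf and Ass1 windows were named after their values were seen. Motifs were searched only in promoter windows. Alternatives covered thresholds, list length, depth, overlap rules, left-out libraries, windows and the motif. No library was replicated, so no test was run, and intervals are exact binomial ones at 95% for counting error. Scripts, tested on simulated data, ran in Python 3.11.15 with pandas 2.3.3, scipy 1.17.1, matplotlib 3.10.9 and numpy 2.4.6.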

Additional observations from a re-analysis of the deposited data

Results flagged for a closer look

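No comparison used peaks on sequences other than the autosomes, X and Y, and no control library was analysed here. In proximal forelimb 9 intervals lay on the mitochondrial sequence, with a median fold of 2.07, and 72 on unplaced and unlocalised sequences, with a median fold of 3.04. Of these, 0 of the 9 and 3 of the 72 shared no base with a peak of another tissue.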

How the results depend on the processing

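The number of proximal-forelimb-only regions was 788 with a −log10 q of at least 5, 4904 in lists of equal length and 5304 without posterior trunk, and within 1.5 times 2711 in the other 7 settings. The share in gene spans was 63.2%, 56.4%, 57.7%, 60.1% and 58.2% with that q, a −log10 p of at least 5, equal length, one depth and no posterior trunk. The share with a region called in all tissues within 10 kb was 38.3%, 31.2%, 31.4%, 33.9% and 35% in the same order, 31.2% without brain, 31.7% without distal forelimb and 72.0% for 50 kb. Listed genes with a region numbered 22 with that q, 84 at equal length, 102 without posterior trunk, 78 with windows of 100 kb and 21 with 10 kb, from 46. The share over all protein-coding genes was computed only for the deposited lists and windows of 50 kb, so these counts have no background. The loose motif was in 20% of windows against 2.22%. For these changes the cause was not tested. Of the 2711, 501 stayed with that q, 1722 with that p and 1239 at one depth. The one-depth setting also required a −log10 p of at least 5 after scaling. No paired analysis was possible because of the single library per tissue.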
